A study of Mus musculus with 6 samples.

Results

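Inflammasome and pyroptosis genes are described here by 10 members, which were taken by symbol from the deposited gene table: the sensor genes Nlrp3, Nlrp1b, Nlrc4, Aim2, Mefv and Naip5, the adaptor gene Pycard, the caspase genes Casp1 and Casp4, and the pore gene Gsdmd. All 10 were among the 18341 genes listed, and all 10 reached the mean of 1 CPM (a gene's reads scaled to a common library total) that a gene needed to be among the 12824 genes tested. In the mouse annotation (GENCODE M21) Nlrp3 and Nlrp1b lie on chromosome 11, Casp1 and Casp4 on 9, Aim2 on 1, Pycard on 7, Naip5 on 13, Gsdmd on 15, Mefv on 16 and Nlrc4 on 17. The RNA came from monocytes sorted from subcutaneous tumours of C57BL/6 mice on day 13 after inoculation. The tumours grew from B16.F10 cells, a mouse melanoma line, that overexpressed BAFF, the B cell activating factor (BAFF tumour, 3 libraries), or from control cells (control tumour, 3 libraries). The series design names sorted monocytes as the material, whereas the source label of each library names the melanoma line. The comparison addresses what BAFF made by the tumour does to transcripts of its monocytes. The labels give neither how BAFF was expressed nor which mice the libraries of each group represent. The p-values therefore cover the spread between these libraries, which may be technical.

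Inflammasomes are protein platforms that assemble in the cytosol of monocytes and macrophages when a sensor meets a microbial product or a sign of damage. The sensor recruits ASC, the adaptor encoded by Pycard, which brings caspase-1 molecules together and so activates them. Caspase-1 matures the cytokine precursors made from Il1b and Il18 and cuts gasdermin D, whose freed part forms pores in the plasma membrane and leads to the lytic death called pyroptosis. Casp4 of the mouse encodes the protein usually called caspase-11, which binds bacterial lipopolysaccharide and cuts gasdermin D without a separate sensor. Several of these genes, Nlrp3 and Il1b among them, are transcribed more after Toll-like receptor signals that act through NF-kB, a step called priming. Transcript levels report on the supply of the parts and not on assembly or cutting, which happen to the proteins.

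The upstream sequences of Mefv, Nlrp3 and Casp4 are shown because these are the members that passed the test on at least 1 of the scales described below. They were read from a RefSeq promoter table for build GRCm38.p6, in which 9 of the 10 members had at least 1 window and 12 windows in all. Each sequence runs 5′ to 3′ on the gene's strand from 250 bases before the annotated start, and bases annotated as exon at its 3′ end were left off. Capitals mark matches to an NF-kB motif or to the PU.1 core GAGGAAG, searched on both strands.
Mefv, chr16:3718125-3718374, minus strand: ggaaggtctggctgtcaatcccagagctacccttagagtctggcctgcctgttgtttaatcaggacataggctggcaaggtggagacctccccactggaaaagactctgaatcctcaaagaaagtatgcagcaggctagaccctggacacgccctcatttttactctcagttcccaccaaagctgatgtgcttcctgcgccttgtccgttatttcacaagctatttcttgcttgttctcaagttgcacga
Nlrp3, upstream start, chr11:59541319-59541567, plus strand: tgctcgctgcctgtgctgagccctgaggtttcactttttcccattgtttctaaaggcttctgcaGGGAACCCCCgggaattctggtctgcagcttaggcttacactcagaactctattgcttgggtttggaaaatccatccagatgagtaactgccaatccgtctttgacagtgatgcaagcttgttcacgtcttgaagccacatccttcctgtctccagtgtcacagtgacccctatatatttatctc
Nlrp3, downstream start, chr11:59542436-59542685, plus strand: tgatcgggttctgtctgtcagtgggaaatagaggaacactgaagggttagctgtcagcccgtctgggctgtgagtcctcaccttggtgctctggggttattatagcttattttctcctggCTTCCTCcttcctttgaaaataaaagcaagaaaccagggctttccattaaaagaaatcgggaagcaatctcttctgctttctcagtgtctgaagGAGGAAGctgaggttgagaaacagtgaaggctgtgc
Casp4, chr9:5308599-5308827, plus strand: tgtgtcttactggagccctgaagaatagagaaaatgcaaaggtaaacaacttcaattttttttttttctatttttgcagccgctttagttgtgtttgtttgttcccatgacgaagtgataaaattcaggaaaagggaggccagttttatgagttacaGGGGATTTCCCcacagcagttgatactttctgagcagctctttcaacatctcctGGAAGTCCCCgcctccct

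Casp4 held overlapping NF-kB matches from -93 to -83 relative to the start of the window shown and a further match from -39 to -30. Relative to a second annotated start of Casp4, whose window is not shown, the same sites lay from -104 to -94 and from -50 to -41. The upstream window of Nlrp3 held 1 NF-kB stretch from -186 to -177, and its downstream window held PU.1 cores from -130 to -124 and from -36 to -30. The Mefv window held no match to any motif searched. Among the members, 3 had an NF-kB match (Casp4, Nlrp3 and Naip5) and 4 had a PU.1 core (Nlrp3, Aim2, Nlrp1b and Pycard). Counted by window, 4 of the 12 windows of the members held the NF-kB motif and 4 the PU.1 core. The Casp4 windows overlap and hold the same NF-kB sites. Over the 32851 windows of the same length in the table, 7.25% held the NF-kB motif and 10.61% the PU.1 core. No window of a member held the interferon-stimulated response core (GAAA, any 2 bases, GAAA), found in 2.98% of all windows, or the Ets and IRF composite (GGAA, any 2 bases, GAAA), found in 2.3%. The PU.1 core contains the first 4 letters of the composite. These are matches of letters, and neither binding nor the start site in use was measured.

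Depth and scale differed between the libraries. The step between low values gives 9.65, 27.6 and 10.1 reads per CPM in BAFF tumours 1, 2 and 3 and 27.3, 7.12 and 4.72 in control tumours 1, 2 and 3, so that 3 reads correspond to between 0.109 and 0.635 CPM. The listed genes held 61.1% to 66.1% of the read total in the BAFF tumours, but 65.6%, 50.2% and 39.8% in control tumours 1, 2 and 3. Values of the ribosomal RNA gene CT010467.1 were 27017 and 43052 CPM in control tumours 2 and 3 and 299 to 5880 CPM in the other libraries. Each value is therefore given on the deposited scale and after median-of-ratios size factors (RLE), which ranged from 0.67 in control tumour 3 to 1.27 in control tumour 1. On the deposited scale the median gene was 0.23 higher in the BAFF tumours (log2 fold change), and after RLE 0.01 higher. Changes on the deposited scale are to be read relative to that shift.

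Mefv rose in BAFF tumours on both scales, and Nlrp3 and Casp4 rose after RLE. No member fell on either scale, also at an unadjusted p under 0.05 (0 of 10 in limma). The call threshold was an adjusted p under 0.05 (limma with Benjamini-Hochberg adjustment over all genes tested). On the deposited scale 1 of the 10 members passed as higher, where 1.81% of all tested genes passed as higher and 3.5% as lower. After RLE 3 of the 10 passed as higher, where 7.18% of all tested genes passed as higher and 9.91% as lower. Every BAFF tumour library lay above every control library for 2 members on the deposited scale, against 11.4% of all tested genes, and for 4 members after RLE, against 17.3%. The median log2 fold change of the members was 0.48 on the deposited scale and 0.25 after RLE. The test called 681 genes in all on the deposited scale (2053 at an unadjusted p under 0.05) and 2192 after RLE.

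**Figure D1:**
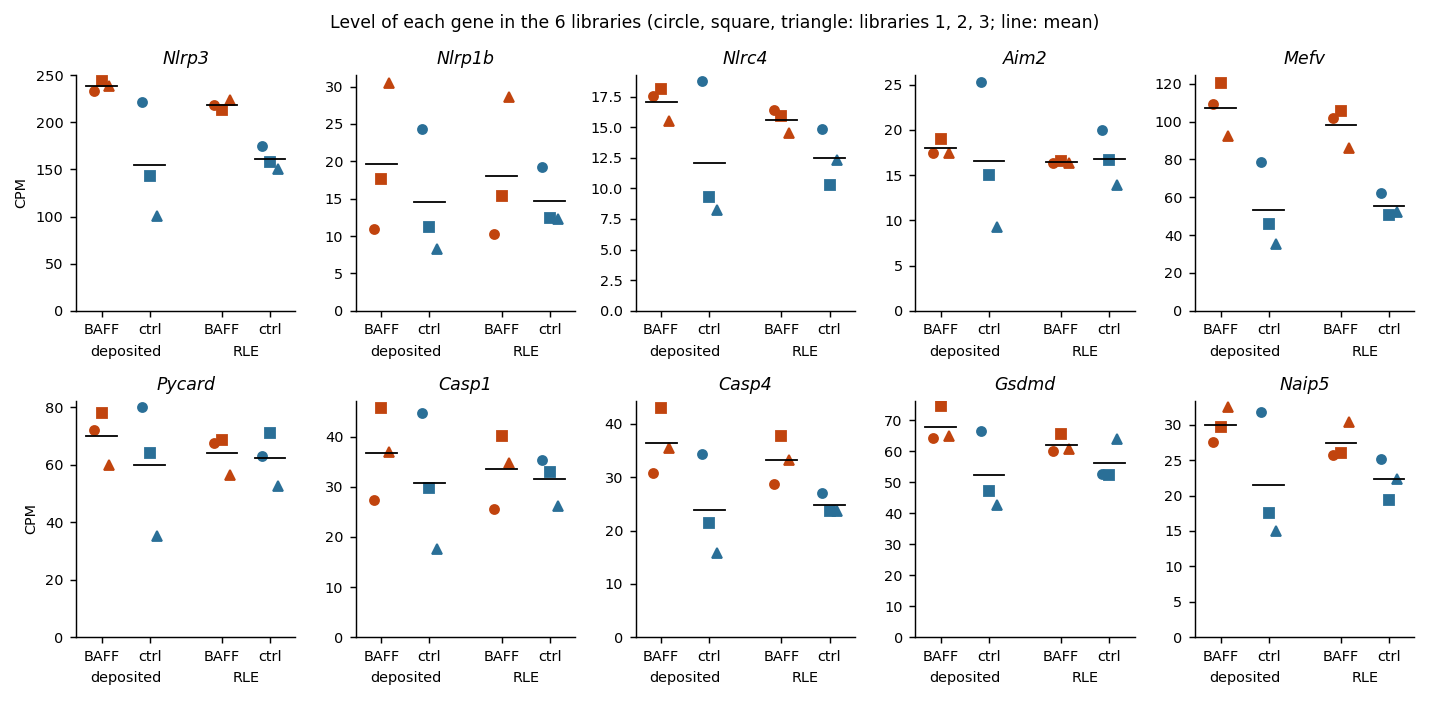
CPM of each gene (y axis, from 0) in the BAFF tumour (orange) and control tumour (blue) libraries, on the deposited scale and after RLE; points are libraries 1, 2 and 3 and lines are group means. Control tumour 3 had the lowest deposited value of each gene, and for Mefv the BAFF tumour libraries lay above the control libraries on both scales.

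**Figure D2:**
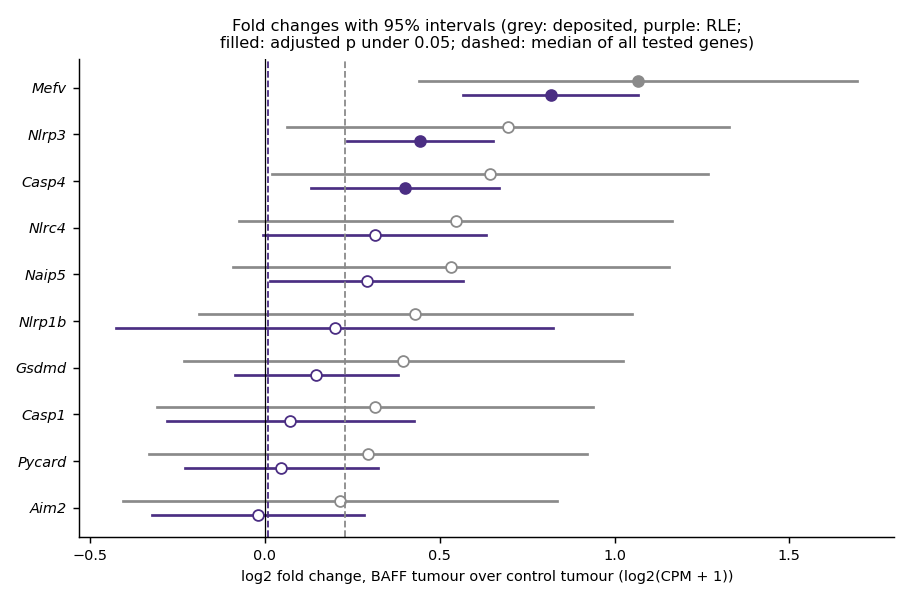
Log2 fold change of BAFF tumour over control tumour (x axis) for each gene with its 95% interval, on the deposited scale (grey) and after RLE (purple); filled points passed the adjusted p of 0.05 and dashed lines mark the median of all tested genes. Mefv is filled on both scales, at 1.07 and 0.82, and Nlrp3 and Casp4 are filled after RLE, at 0.44 and 0.40.

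Mefv encodes pyrin, a sensor that responds when bacterial toxins or other events inactivate the small GTPase RhoA, and its human counterpart is the gene mutated in familial Mediterranean fever. Mefv stood at 109, 121 and 92.1 CPM in BAFF tumours 1, 2 and 3 and at 78.9, 45.9 and 35.1 CPM in control tumours 1, 2 and 3. The groups did not overlap, the closest libraries being BAFF tumour 3 and control tumour 1. The group means were 107.2 ± 14.3 and 53.3 ± 22.8 CPM (SD, n = 3 each), and the log2 fold change was 1.07 ± 0.32 (SE; limma adjusted p = 0.0219). After RLE the libraries stood at 102, 106 and 86.3 against 62.2, 50.8 and 52.4 CPM, again without overlap, and the log2 fold change was 0.82 ± 0.11 (limma adjusted p = 0.000596). The exact two-sided permutation test of the 6 values gave p = 0.1 on each scale, the smallest that 3 against 3 libraries allow. On the deposited scale the SE is shared by genes of similar level and does not reflect the spread of Mefv itself. Omitting BAFF tumour 1, 2 or 3, or else control tumour 2, ended the deposited call (limma adjusted p up to 0.361), whereas after RLE Mefv passed in each of the 6 fits that left out 1 library (at most 0.00531). With control tumours 2 and 3 both left out, the log2 fold change was 0.43 (adjusted p = 0.138) on the deposited scale and 0.63 (0.0338) after RLE. That fit was added after the data were seen, and it assumes that the lone control library varies like the BAFF tumours.

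Nlrp3 encodes the sensor of potassium loss, crystals and membrane damage, and it is the member most closely tied to priming. It stood at 233, 244 and 239 CPM in BAFF tumours 1, 2 and 3 and at 221, 143 and 101 CPM in control tumours 1, 2 and 3. The BAFF tumour libraries were within a narrow band, with control tumour 1 just under it and control tumours 2 and 3 well below. The means were 238.6 ± 5.1 and 154.7 ± 61.2 CPM (SD, n = 3 each), with a log2 fold change of 0.70 ± 0.32 that did not pass (limma adjusted p = 0.241). After RLE the values were 218, 213 and 224 against 175, 158 and 150 CPM, and Nlrp3 passed with a log2 fold change of 0.44 ± 0.10 (limma adjusted p = 0.00781; 95% interval 0.23 to 0.65). It passed after RLE in each of the 6 fits that left out 1 library (adjusted p at most 0.0345), but not with control tumours 2 and 3 both left out (log2 fold change 0.31, adjusted p = 0.267). Neutrophils also express Mefv and Nlrp3, and the summed level of 9 neutrophil markers was 165.2 to 223.5 CPM in BAFF tumours and 98.5 to 153.3 CPM in control tumours after RLE. The largest parts of that sum were Csf3r (means 79.0 and 55.7 CPM) and Mmp8 (50.7 and 40.5 CPM, overlapping between the groups). Of the 7 markers tested, only Csf3r and Retnlg passed after RLE. The part of neutrophils in these results was not tested. In bulk RNA, a change in the share of cells that express a gene and a change in the amount per cell cannot be told apart.

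Naip5 and Nlrc4 encode partner proteins: NAIP5 binds bacterial flagellin and then opens NLRC4, which recruits the caspase. Naip5 stood at 27.6, 29.6 and 32.5 CPM in BAFF tumours 1, 2 and 3 and at 31.8, 17.6 and 14.9 CPM in control tumours 1, 2 and 3. Nlrc4 stood at 17.5, 18.1 and 15.5 CPM against 18.8, 9.27 and 8.26 CPM in the same order. For both genes control tumour 1 lay among or above the BAFF tumours and control tumours 2 and 3 lay below them. Neither gene passed on the deposited scale, with log2 fold changes of 0.53 ± 0.32 for Naip5 and 0.55 ± 0.32 for Nlrc4 (limma adjusted p = 0.411 and 0.393). After RLE the Naip5 groups did not overlap, at 25.8, 26.0 and 30.5 against 25.1, 19.4 and 22.3 CPM, but its log2 fold change of 0.29 ± 0.13 did not pass (limma adjusted p = 0.14; 95% interval 0.02 to 0.57), and that of Nlrc4 was 0.31 ± 0.15 (adjusted p = 0.17). Reads of Naip5 may be shared with its close paralogs Naip1, Naip2 and Naip6, so its level is uncertain. Nlrc4 overlaps a processed pseudogene on the same strand, CT033749.1, which the table lists at a mean of 6.87 CPM. The kit did not mark strand, which also touches Aim2 and Pycard, but the genes on the opposite strand there, Cadm3 and Gm45205, had means of 0.171 and 0.408 CPM.

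Nlrp1b encodes a sensor that is activated when microbial proteases cut it or when the peptidases DPP8 and DPP9 are inhibited. Its values were 10.99, 17.6 and 30.5 CPM in BAFF tumours 1, 2 and 3 and 24.3, 11.2 and 8.26 CPM in control tumours 1, 2 and 3. It had the widest spread of the members within the BAFF tumours, with a coefficient of variation of 50.4% on the deposited scale and 52.2% after RLE. The groups overlapped, and the log2 fold change was 0.43 ± 0.32 on the deposited scale (limma adjusted p = 0.518) and 0.20 ± 0.29 after RLE (adjusted p = 0.69; 95% interval -0.42 to 0.82). Its neighbour Nlrp1a, a close paralog with which reads may be shared, stood at 7.15, 12.4 and 15.6 CPM against 12.0, 8.71 and 6.77 CPM. Both genes were lowest in BAFF tumour 1 among the BAFF tumours and highest in BAFF tumour 3.

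Aim2 encodes the sensor of double-stranded DNA in the cytosol. It stood at 17.4, 19.0 and 17.5 CPM in BAFF tumours 1, 2 and 3 and at 25.3, 15.0 and 9.31 CPM in control tumours 1, 2 and 3, so the highest and the lowest values both came from control tumours. After RLE the BAFF tumours lay at 16.3, 16.6 and 16.4 CPM and the control tumours at 19.98, 16.6 and 13.9 CPM. The log2 fold change was 0.21 ± 0.32 on the deposited scale and -0.02 ± 0.14 after RLE, where its sign turned (limma adjusted p = 0.743 and 0.945; 95% interval after RLE -0.32 to 0.28). A difference was not detectable, and the interval does not exclude changes of that size in either direction.

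Pycard, the gene of the adaptor ASC, stood at 72.0, 78.1 and 60.0 CPM in BAFF tumours 1, 2 and 3 and at 79.9, 64.2 and 35.1 CPM in control tumours 1, 2 and 3. The groups overlapped, with the highest and the lowest value both among the control tumours. The log2 fold change was 0.30 ± 0.32 on the deposited scale and 0.05 ± 0.13 after RLE (limma adjusted p = 0.656 and 0.847; 95% interval after RLE -0.23 to 0.32). Upper-quartile factors gave a value of the opposite sign, -0.0009, close to 0.

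Casp1, the gene of the caspase that inflammasomes activate, stood at 27.4, 45.7 and 37.0 CPM in BAFF tumours 1, 2 and 3 and at 44.7, 29.8 and 17.6 CPM in control tumours 1, 2 and 3. The groups overlapped, and Casp1 did not pass (log2 fold change 0.32 ± 0.32 on the deposited scale, limma adjusted p = 0.63, and 0.07 ± 0.16 after RLE, adjusted p = 0.809). Casp4, the gene of caspase-11, stood at 30.8, 43.0 and 35.5 CPM against 34.3, 21.5 and 15.9 CPM, and overlapped through control tumour 1. After RLE its libraries stood at 28.8, 37.7 and 33.3 against 27.1, 23.8 and 23.7 CPM, without overlap. Its log2 fold change was 0.64 ± 0.32 on the deposited scale (limma adjusted p = 0.289) and 0.40 ± 0.12 after RLE (adjusted p = 0.0428), close to the threshold. Omitting BAFF tumour 2 or 3, or else control tumour 2 or 3, ended the RLE call (adjusted p up to 0.17). The call was also lost with upper-quartile factors (0.0749), and with control tumours 2 and 3 both left out after RLE (log2 fold change 0.27, adjusted p = 0.458). The ratio of the caspase genes needs no library factor: Casp4 over Casp1 was 1.13, 0.94 and 0.96 in BAFF tumours 1, 2 and 3 and 0.768, 0.722 and 0.904 in control tumours 1, 2 and 3, without overlap (exact two-sided permutation p = 0.1, the smallest possible). That pair was chosen after its values were seen.

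Gsdmd, the gene of gasdermin D, stood at 64.3, 74.6 and 64.9 CPM in BAFF tumours 1, 2 and 3 and at 66.6, 47.2 and 42.8 CPM in control tumours 1, 2 and 3. Control tumour 1 lay within the range of the BAFF tumours and the other control tumours lay below it. The log2 fold change was 0.40 ± 0.32 on the deposited scale and 0.15 ± 0.11 after RLE (limma adjusted p = 0.559 and 0.393; 95% interval after RLE -0.09 to 0.38). After RLE the highest library was BAFF tumour 2 at 65.4 CPM, followed by control tumour 3 at 63.8 CPM, which had been the lowest on the deposited scale.

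Relative to Pycard in the same library, a measure that no library factor changes and that was added after the data were seen, Mefv and Nlrp3 separated the groups. Mefv over Pycard was 1.51, 1.54 and 1.53 in BAFF tumours 1, 2 and 3 and 0.987, 0.716 and 1.0 in control tumours 1, 2 and 3. Nlrp3 over Pycard was 3.24, 3.12 and 3.98 against 2.77, 2.22 and 2.86. The exact two-sided permutation test gave p = 0.1 for each, the smallest possible. For Casp4 over Pycard the groups overlapped, at 0.427, 0.551 and 0.592 against 0.429, 0.335 and 0.452. The groups overlapped for the other 6 members as well. The share of all tested genes whose ratio to Pycard keeps the groups apart was not computed. The separation is therefore not shown to be particular to Mefv and Nlrp3. Such a ratio shows unequal change of its parts and does not show which of them changed.

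**Figure D3:**
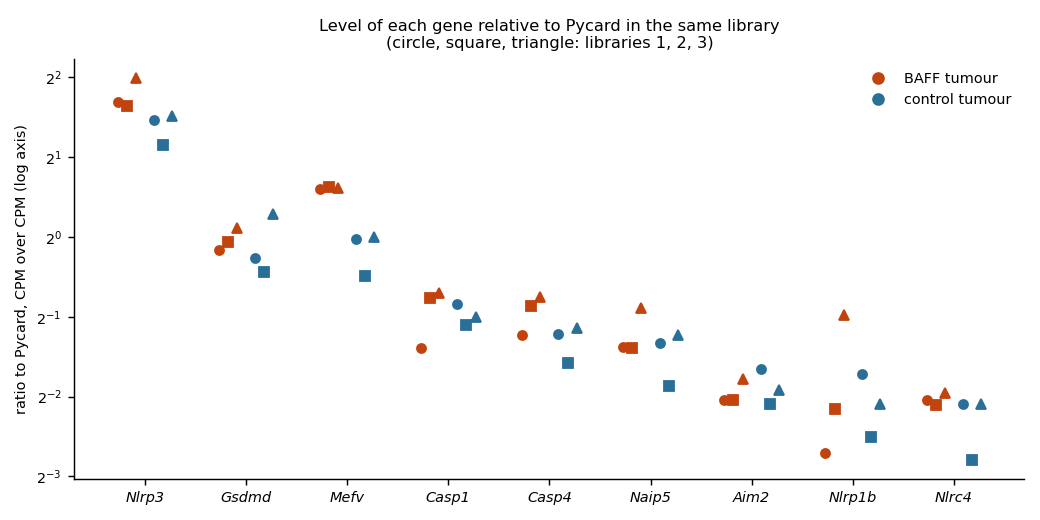
CPM of each gene divided by the CPM of Pycard in the same library (y axis, log scale), for BAFF tumour (orange) and control tumour (blue) libraries 1, 2 and 3. For Mefv the BAFF tumours lie at 1.51 to 1.54 and the control tumours at 0.716 to 1.0, and for Nlrp3 the groups are also apart.

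Levels of different genes were compared per kilobase of the longest principal transcript, in CPM per kb on the deposited scale. Nlrp3 had the highest mean level over the 6 libraries at 48.9 ± 15.0 CPM per kb (SD), followed by Gsdmd at 33.5 ± 6.88 and Mefv at 25.9 ± 11.01. Nlrp3 lay above Gsdmd in 6 of 6 libraries and Gsdmd above Mefv in 6 of 6. Mefv, Casp1 (22.5 ± 7.28) and Casp4 (21.02 ± 6.9) were close: Mefv lay above Casp1 in 3 of 6 libraries and Casp1 above Casp4 in 4 of 6. By group, Mefv stood at 34.6 ± 4.62 CPM per kb in BAFF tumours and 17.2 ± 7.36 in control tumours, Casp1 at 24.5 ± 6.14 and 20.5 ± 9.08, and Casp4 at 25.4 ± 4.29 and 16.65 ± 6.59 (SD, n = 3 each). The means of Casp1 and Casp4 thus stood in opposite order in the groups, by less than the spread between libraries. Pycard followed at 17.1 ± 4.34 CPM per kb, below Casp4 in 5 of 6 libraries. The other sensors were lower, with Aim2 at 6.08 ± 1.84, Naip5 at 4.93 ± 1.45, Nlrp1b at 4.15 ± 2.12 and Nlrc4 at 3.08 ± 0.982 CPM per kb, and each lay above the next in 5 of 6 libraries. The place of Pycard depends on the length used. Its annotated transcript is 3.8 kb with a coding part of 0.579 kb, and per kilobase of coding sequence Pycard had the highest level of the 10, 112 CPM per kb, with the order of the others unchanged.

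The members differed in pattern across the libraries. Likeness was measured after RLE as the mean absolute difference of log2 values over the 6 libraries, each gene centred on its own mean. Nlrp3 and Casp4 were the closest pair (0.0907), and Nlrp1b and Mefv were the farthest apart (0.514). Next came Nlrc4 and Naip5 (0.11), Nlrp3 and Naip5 (0.116), and Nlrp3 and Nlrc4 (0.118), nearly level. Nlrp3, Casp4, Nlrc4 and Naip5 each lay closer to a gene outside the members, at 0.0273 to 0.0397, so these pairs are not singled out. For Mefv, the member with the smallest p, the closest of 9024 other genes averaging at least 5 CPM were Lilr4b (0.0508), Lilrb4a (0.0521) and Csgalnact2 (0.0535). Lilr4b stood at 1358, 1541 and 1073 CPM in BAFF tumours 1, 2 and 3 and at 1078, 598 and 456 CPM in control tumours 1, 2 and 3. Lilr4b and Lilrb4a, receptor genes of the leukocyte immunoglobulin-like family, are close paralogs whose reads may be shared, so they count as 1 observation. Csgalnact2, which encodes an enzyme of chondroitin sulfate synthesis, stood at 62.8, 69.0 and 52.8 CPM against 49.7, 25.7 and 21.4 CPM. These likenesses describe 6 libraries that share the same 2 groups.

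The rest of the pathway was followed through 7 lists with 91 tested genes outside the members (4 more, Nlrp10, Nlrp12, Gsdmc and Il18r1, were found but lay under the mean of 1 CPM). Of these 91 genes 4 rose and 0 fell on the deposited scale (median 0.36 as log2 fold change). There 1.81% of all tested genes passed as higher and 3.5% as lower. After RLE 17 rose, 1 fell and 73 did not pass, with a median of 0.12. The shares of all tested genes were then 7.18% higher and 9.91% lower. The counts of each list below are to be read beside these shares. With control tumours 2 and 3 both left out, the median of all tested genes was -0.18 on the deposited scale and 0.005 after RLE. That fit rests on 1 control library, so its calls are not compared with these shares. Genes that passed after RLE but not on the deposited scale are named here after their values were seen.

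**Figure D4:**
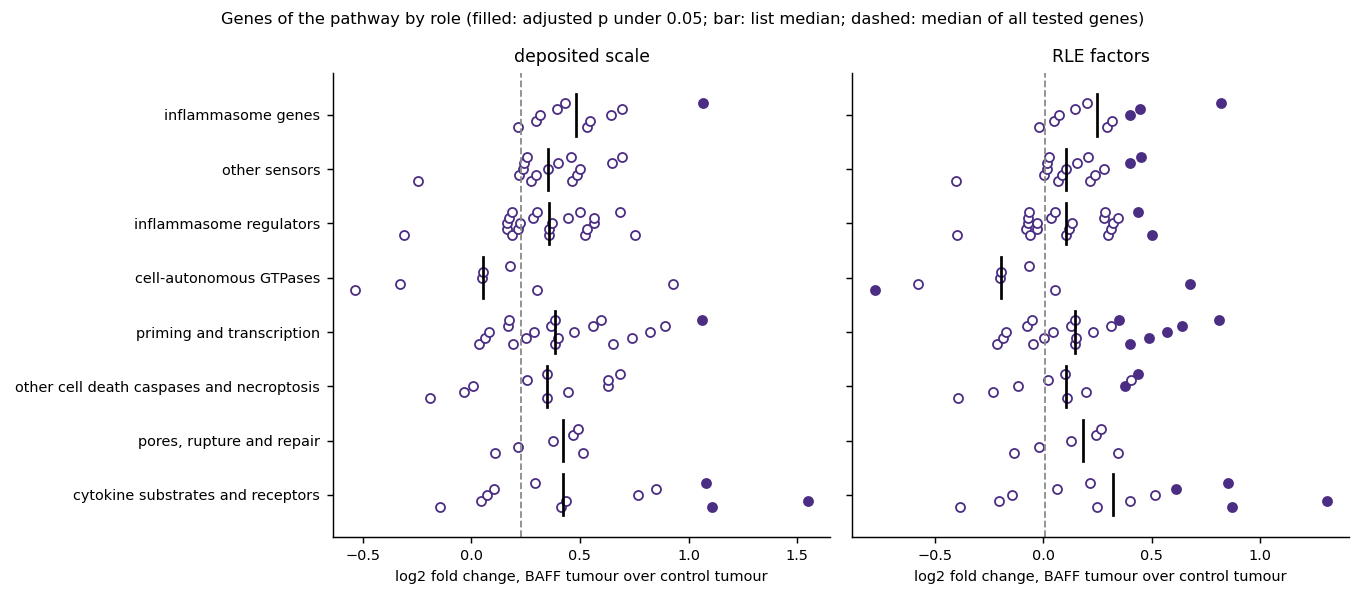
Log2 fold change of BAFF tumour over control tumour (x axis) for every tested gene of the members and of the 7 pathway lists, on the deposited scale (left) and after RLE (right); filled points passed the adjusted p of 0.05, bars are list medians and dashed lines the median of all tested genes. On the deposited scale filled points lie among the inflammasome genes, the priming list and the cytokine list, and none of them lies below 0.

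Among 20 genes of priming and transcription, Tlr2 rose on the deposited scale and 6 rose after RLE, with 0 falling on either. Tlr2, a receptor for bacterial lipoproteins, stood at 485, 545 and 547 CPM in BAFF tumours 1, 2 and 3 and at 396, 207 and 193 CPM in control tumours 1, 2 and 3, without overlap. Its log2 fold change was 1.06 ± 0.32 (limma adjusted p = 0.0256) and 0.81 ± 0.12 after RLE (adjusted p = 0.00103). Cd14, the lipopolysaccharide co-receptor gene and the most abundant of the list, did not overlap between groups and passed after RLE (0.64 ± 0.14, limma adjusted p = 0.00948). It did not pass without BAFF tumour 2 (0.0508). Nfkb1 (0.57), which encodes an NF-kB subunit, the interferon receptor gene Ifnar1 (0.49), Traf6 (0.35) and Ifngr1 (0.40) also passed after RLE. Nfkb1 and Ifnar1 did so in each of the 6 fits that left out 1 library, Ifngr1 in 1 and Traf6 in 0. With control tumours 2 and 3 both left out, 1 control library remains. The log2 fold changes after RLE were then 0.54 for Nfkb1, 0.42 for Ifnar1, 0.72 for Cd14, 0.32 for Traf6 and 0.22 for Ifngr1. Tlr4, the lipopolysaccharide receptor gene, stood at 156.6 ± 19.2 and 125.3 ± 50.9 CPM and did not pass (limma adjusted p = 0.561, and 0.422 after RLE).

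Among 12 genes of cytokine substrates and receptors, 3 rose on the deposited scale, 4 rose after RLE and 0 fell. Il1b, the gene of the main caspase-1 substrate, stood at 1768, 2028 and 1245 CPM in BAFF tumours 1, 2 and 3 and at 1504, 790 and 759 CPM in control tumours 1, 2 and 3, and the groups overlapped through control tumour 1. It did not pass on either scale (log2 fold change 0.77 ± 0.33, limma adjusted p = 0.18; 0.51 ± 0.18 after RLE, adjusted p = 0.0656). Il18, the other substrate gene, stood at 10.6 ± 1.6 and 7.85 ± 2.98 CPM and did not pass (limma adjusted p = 0.51, and 0.359 after RLE). The genes that rose restrain or receive these cytokines. Il1rn, the gene of the interleukin 1 receptor antagonist, stood at 669, 751 and 493 CPM against 411, 250 and 240 CPM. Il1r2, the decoy receptor gene, stood at 82.5, 42.3 and 37.5 CPM against 26.8, 13.2 and 13.1 CPM. Il18rap, the accessory chain of the interleukin 18 receptor, stood at 13.0, 10.7 and 13.5 CPM against 8.05, 5.34 and 3.39 CPM. None of the 3 overlapped between groups, and their log2 fold changes were 1.11, 1.55 and 1.08 (limma adjusted p = 0.0179, 0.000165 and 0.0165). On the deposited scale, omitting any BAFF tumour library or control tumour 2 ended the calls of Il1rn, Il18rap and Tlr2, and omitting BAFF tumour 1 ended that of Il1r2. After RLE the 4 calls, Tlr2 included, held in each of the 6 fits that left out 1 library, with log2 fold changes of 0.85, 1.31, 0.87 and 0.81 for Il1rn, Il1r2, Il18rap and Tlr2. With control tumours 2 and 3 both left out, Il1rn and Tlr2 passed after RLE (limma adjusted p = 0.0316 and 0.0407), and Il1r2 and Il18rap did not (0.0686 and 0.0574). Il1rap, the shared accessory chain of interleukin 1 receptors, passed after RLE (0.61, limma adjusted p = 0.00722).

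Of 15 other sensor genes, 0 passed on the deposited scale in limma (2 higher at an unadjusted p under 0.05), and Naip2 and Nod2 rose after RLE (adjusted p = 0.0422 and 0.0214). Naip2, whose protein recognises the bacterial secretion rod and opens NLRC4 as NAIP5 does, stood at 67.8, 74.6 and 78.0 CPM in BAFF tumours 1, 2 and 3 and at 72.8, 38.5 and 35.7 CPM in control tumours 1, 2 and 3. Its RLE call held in 1 of the 6 fits that left out 1 library, and that of Nod2, which encodes a sensor of bacterial cell wall fragments, in 2. Ifi204, the most abundant gene of the list and a relative of Aim2, stood at 382.1 ± 48.7 and 285.7 ± 83.7 CPM and did not pass (limma adjusted p = 0.5). Of 21 regulators of inflammasomes, 0 passed on the deposited scale in limma (2 higher at an unadjusted p under 0.05), and after RLE Syk, a kinase below many activating receptors, and Pstpip1, whose protein binds pyrin, rose by 0.50 and 0.44 (limma adjusted p = 0.00516 and 0.0227). Pstpip1 stood at 62.6, 55.3 and 47.4 CPM against 46.5, 32.4 and 25.4 CPM, without overlap. Its RLE call held in 2 of the 6 fits that left out 1 library and that of Syk in 6. With control tumours 2 and 3 both left out, the log2 fold change after RLE was 0.43 for Pstpip1 and 0.36 for Syk. Nek7, the kinase that NLRP3 needs, stood at 53.4 ± 3.5 and 49.2 ± 19.9 CPM, with a log2 fold change of 0.19 on the deposited scale and -0.06 after RLE. Hsp90ab1, a chaperone gene and the most abundant of the regulators, did not pass (0.36, limma adjusted p = 0.597).

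Of 7 genes of cell-autonomous GTPases, interferon-induced proteins that help release bacterial ligands, 0 passed on the deposited scale in limma (1 higher at an unadjusted p under 0.05). After RLE Gbp2 rose by 0.67 and Irgm2 changed by -0.78 (limma adjusted p = 0.0265 and 0.0371), each in 2 of the 6 fits that left out 1 library. The list median was 0.05 on the deposited scale and -0.20 after RLE, below the medians of all tested genes. Of 10 genes of other cell death caspases and necroptosis, 0 passed on the deposited scale (2 higher at an unadjusted p under 0.05), and Cflar, an inhibitor of caspase-8 and the most abundant of them, and Ripk3, the kinase of necroptosis, rose after RLE (limma adjusted p = 0.0405 and 0.0227). Their RLE calls held in 1 and 2 of the 6 fits that left out 1 library. Of 6 genes of pores, membrane rupture and repair, 0 passed on either scale in limma (0 at an unadjusted p under 0.05 on the deposited scale and 2 higher after RLE). The gasdermin gene Gsdmc, named after its values were seen, was found but lay under the mean of 1 CPM and was not tested. It stood at 0.104, 0.217 and 0.296 CPM in BAFF tumours 1, 2 and 3 and at 1.45, 1.69 and 1.06 CPM in control tumours 1, 2 and 3, without overlap. The BAFF tumour values were near the level of 3 reads (0.311, 0.109 and 0.296 CPM). The control values lay above that level (0.11, 0.421 and 0.635 CPM). The untested sensor gene Nlrp10 went the other way without overlap, at 0.933, 0.761 and 0.987 against 0.329, 0.421 and 0.423 CPM. Its values in control tumours 2 and 3 were at or under the level of 3 reads. Nlrp12 had means of 1.31 and 0.289 CPM and overlapped. The share of all untested genes without overlap was not computed. Among the tested genes Chmp4b, a membrane repair gene and the most abundant, stood at 143.9 ± 8.68 and 102.4 ± 25.2 CPM (limma adjusted p = 0.438), and Ninj1, which ruptures the membrane of dying cells, at 126.8 ± 20.1 and 98.6 ± 24.7 CPM (adjusted p = 0.578).

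Markers of cell types moved between the groups as well, and their part in the values above was not tested. All 11 monocyte markers were found, and their summed level on the deposited scale was 10590 to 12160 CPM in BAFF tumours and 5891 to 11060 CPM in control tumours, where Vcan was the 1 marker that passed. After RLE the sums were 9917 to 10650 and 6877 to 8791 CPM, without overlap. Among those that rose after RLE were Ccr2, Cd14, Vcan and Plac8, and Cx3cr1 fell. Of 13 neutrophil markers 9 were found, with a sum of 176.4 to 238.9 CPM in BAFF tumours and 87.8 to 194.2 CPM in control tumours on the deposited scale. On the deposited scale 4 of the 7 tested rose, S100a8, S100a9, Cxcr2 and Lcn2, though the groups overlapped for each of them. BAFF tumour 1 was the highest library for these 4, as for Lcn2 with 10.1 CPM against 1.7 and 1.48 CPM in BAFF tumours 2 and 3 and 2.3 CPM in control tumour 1. After RLE S100a8, S100a9, Cxcr2 and Lcn2 did not pass (limma adjusted p = 0.176, 0.31, 0.0624 and 0.128). Csf3r and Retnlg rose after RLE but did not pass on the deposited scale (limma adjusted p = 0.19 and 0.0984). The granule genes Mpo and Ltf were under 1 CPM in all 6 libraries. Macrophage markers summed to 2732 to 2963 CPM in BAFF tumours and 3911 to 4428 CPM in control tumours after RLE, where 6 of 10 fell, the complement genes C1qa, C1qb and C1qc among them. These sums overlapped on the deposited scale, at 2945 to 3163 and 2664 to 5611 CPM, and 0 of 10 passed in limma (2 lower at an unadjusted p under 0.05). Of 8 melanoma markers 7 fell on both scales, with a summed deposited level of 76.9 to 161.6 CPM in BAFF tumours and 395.6 to 682.0 CPM in control tumours. Of the other lists, 2 of 8 dendritic cell markers rose on both scales (Flt3 and Cd209a), 0 of 7 tested T and natural killer cell markers passed (1 higher at an unadjusted p under 0.05 on each scale), and 1 of 2 tested B and plasma cell markers, Jchain, fell on both. Of 8 stromal markers 0 passed on the deposited scale in limma (2 higher and 2 lower at an unadjusted p under 0.05), and after RLE Pecam1 and Kdr rose and Col1a1 fell.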

How the data were processed

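RNA from sorted monocytes of 3 BAFF tumours and 3 control tumours was sequenced from TruSeq libraries without strand information (per the labels' protocols). Partek, STAR (2.4.1d) and Bowtie2 (2.2.5) are named, without roles, in the submitters' processing notes. Genome build: not given in the sources used here, nor are annotation and counting rule. The authors deposited 1 table of CPM values for 18341 gene symbols, of which 18238 matched GENCODE release M21. The table is described as CPM. Between 86.1% and 88.0% of low values in a library were whole multiples of 1 step within a tolerance of 0.02. The reads per CPM given above are therefore estimates, reads were not recovered and no count model was used. All 6 sample columns were mapped, a misspelt control column by the title it matches.

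The members and the gene lists were chosen with earlier results of these data known. limma-trend (limma 3.58.1, R 4.3.3) was fitted on log2(CPM + 1) to the 12824 genes averaging at least 1 CPM, without covariates, so fold changes of low genes are understated. The test was two-sided with Benjamini-Hochberg adjustment. RLE factors were computed on the same genes. Errors are SD over libraries for levels and SE for fold changes. Named were all members, each listed gene passing on the deposited scale, the most abundant gene of each list, and the 3 genes most like the member with the smallest p. Genes named beyond this rule (Nlrp1a, Il18, Tlr4, Nek7, Ninj1, overlapping genes, markers and genes passing after RLE alone) were chosen after their values were seen. Listed genes not found in the table, 10 from the pathway lists among them, are not analysed here. No 2 libraries of a group agreed within sampling noise (chi-square per degree of freedom at least 8.18, on reads estimated from the step). That chi-square is a sum over genes that includes the ribosomal RNA gene CT010467.1, whose part in it was not separated. Motifs were searched with Python (3.11.15).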

Additional observations from a re-analysis of the deposited data

How the results depend on the processing

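The comparison was repeated under 24 alternatives, 4 of them chosen after seeing the data (only the 4 shallower libraries, or control tumours 2 and 3 both left out, on each scale). Of the 240 member fold changes so obtained, 181 kept direction and side of the threshold, 27 newly passed, 6 no longer passed (all for Mefv) and 26 turned sign. No filter, a pseudocount of 0.1, a mean of 5 CPM and robust empirical Bayes left 1 member called; the mean of 5 CPM lowered the count of all genes called from 681 to 316. RLE factors gave 2192 genes, 3 members and 18 pathway genes, and upper-quartile factors 2080, 2 and 14. Same-numbered libraries did not deviate together from their group means (correlations after RLE -0.05, 0.05 and -0.04). With 3 libraries per group and no label for it, that cannot settle whether they were paired. With a replicate block 608 genes and 0 members passed (Mefv adjusted p = 0.0561), and with the block and RLE factors 1940 genes, 2 members and 16 pathway genes (Casp4 adjusted p = 0.0702). The 4 shallower libraries gave 1798 genes, 6 members and 20 pathway genes, or 2 members with RLE factors. Without control tumours 2 and 3, where the lone control library is assumed to vary like the BAFF tumours, 1805 genes (1100 with RLE factors), 0 members and 7 pathway genes passed. The member and pathway counts of that fit hold for the deposited scale only. There most of the pathway genes that passed were lower in BAFF tumours, unlike in the main fit. The median log2 fold change of all tested genes was -0.18 there. Because that fit rests on the lone control library, its calls are not weighed against those of the main fit. Leaving out 1 library gave 170 to 5149 genes, 0 to 10 members and 0 to 50 pathway genes over both scales. The highest counts came without control tumour 1, where the median gene was 0.44 higher in BAFF tumours. With RLE factors these ranges were 1349 to 1830 genes, 2 to 3 members and 8 to 13 pathway genes. The cause of these shifts was not tested.

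The following values turned sign. Aim2 was -0.0196 with RLE factors, with or without the block, and -0.0652 with upper-quartile factors, where Pycard was -0.0009. Without control tumours 2 and 3 the log2 fold changes were -0.475 for Aim2, -0.404 for Nlrp1b, -0.307 for Casp1, -0.197 for Pycard, -0.134 for Nlrc4, -0.0893 for Naip5 and -0.0105 for Cflar, and with RLE factors -0.282 for Aim2, -0.211 for Nlrp1b and -0.111 for Casp1. With 1 library left out, on either scale, Aim2 ranged from -0.145 to 0.559, Nlrp1b from -0.169 to 0.847, Pycard from -0.071 to 0.542, Casp1 from -0.064 to 0.628 and Hsp90ab1 from -0.0051 to 0.517. Library weights could not be used, since 1 library, control tumour 2, took 100% of the weight.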
